A study of Microtus ochrogaster with 51 samples.

Results

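Prairie voles that had lived with a mate for 6 weeks were compared with voles that had lived with a mate for 2 weeks, in bulk poly(A) RNA-seq of the nucleus accumbens. The comparison used 24 of the 51 libraries of the deposited TPM table, with 1 library per animal. The 6 libraries labelled 6wk_pair came from the female and the male of pairs 18, 22 and 27. The 18 libraries labelled 2wk_pair were those that are also columns of the deposited normalized count table, and they came from both partners of 9 pairs (2, 8, 9, 10, 11, 12, 13, 14 and 16). All animals in both groups were housed with an opposite-sex partner, with no separation, and the labels give neither age nor genotype. Cohort was fully confounded with duration: the 2-week pairs belonged to cohorts 1 and 2, 6-week pairs 18 and 22 to cohort 3, and 6-week pair 27 to cohort 4. A difference between the groups therefore cannot be told apart from a difference between cohorts. The remaining animals of cohorts 3 and 4 had been separated from their mates after 2 weeks (labelled 4wk_sep), and their values are given below only where they bear on a gene of the comparison.

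The prairie vole is a rodent in which adult mates form a lasting, selective bond, and both partners share in the care of the young. The nucleus accumbens is the part of the ventral striatum in which dopamine, oxytocin and opioid signals act on reward and on the preference for the partner.

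The deposited tables name genes by ENSMOCG identifiers only, and none of the 23038 identifiers matched the reference gene table (assembly MicOch1.0, 26397 genes). Genes are therefore given by identifier, without symbol, function or position, and the tissue label could not be checked against marker genes. Values are TPM, which are reads divided by effective length and rescaled so that every library has an equal sum. Fold changes and their standard errors (SE) were computed on log2(TPM + 0.5), which understates the change of low genes. Of the genes, 13111 had a mean of at least 1 TPM and were tested.

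The 6 libraries of 6-week pairs held 27.4M to 32.2M reads on genes (reconstructed from TPM), against 22.3M to 37.7M reads in the 2-week libraries. The 11 most abundant identifiers took 37.6% to 49.0% of the TPM of a 6-week library and 27.5% to 54.5% of a 2-week library. The fragment index, a measure of library fragment length read from the effective gene lengths (higher for longer fragments), lay between -2.01 and -0.80 in 6-week libraries and between -2.43 and 1.05 in 2-week libraries. Over pair means (3 pairs against 9), neither these 3 measures nor the number of genes above 1 TPM nor the first principal component passed a two-sided exact permutation test (p from 0.218 to 0.891, adjusted p = 0.891 for all 5). The smallest p that the 220 splits allow is 0.0091.

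The 3 pairs did not lie together. The first principal component accounted for 49.4% of the variance. On it the female and male of pair 18 scored 62.3 and 82.5, those of pair 22 scored -20.0 and -28.2, and those of pair 27 scored -33.8 and -47.5. The 2-week libraries covered the whole of this range, from -66.7 to 86.9. Both partners of 2-week pair 9 (58.0 and 70.7) and of 2-week pair 2 (86.9 and 35.3) stood at the same end as pair 18.

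**Figure D1:**
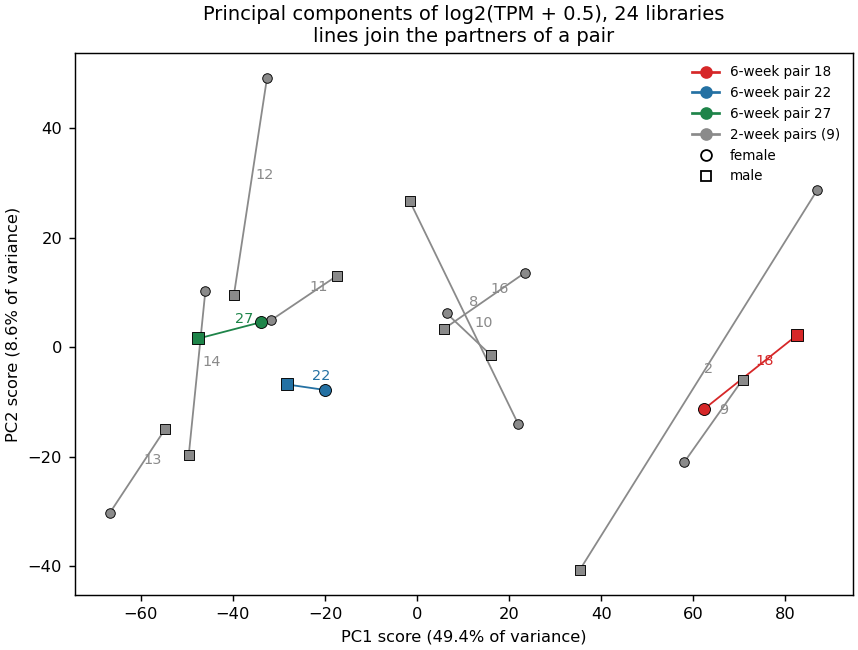
Scores of the 24 libraries on the first (horizontal, 49.4% of variance) and second (vertical, 8.6%) principal components of log2(TPM + 0.5), circles for females, squares for males, and a line joining the partners of each numbered pair. Pair 18 (red) lies on the right with 2-week pairs 2 and 9, while pairs 22 (blue) and 27 (green) lie left of zero among other 2-week pairs (grey).

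With the 3 pairs averaged, no gene passed. The limma test gave 0 of 13111 genes at an adjusted p below 0.05 (0%), and 280 genes at an unadjusted p below 0.05 (2.14%), 188 higher (1.43%) and 92 lower (0.702%) after 6 weeks, where 656 would be expected by chance. The median log2 fold change over all genes was 0, and the median SE of a gene was 0.19. There was no gene whose 6 values in 6-week pairs all lay above, or all lay below, the 18 values in 2-week pairs. In simulated data of the same size, the test found 66% of genes changed by 1 on the log2 scale and 95% of those changed by 2. The simulated libraries were drawn independently, without likeness between partners, so these shares need not hold for the real libraries. On reads, edgeR also called 0 genes (608 unadjusted, of 14198 genes with at least 10 reads on average) and DESeq2 called 3. A fit with partners as a replicate block called 0 genes in limma, 90 unadjusted. The unadjusted count depended on the fit: it was 2864 with the fragment index as covariate and 2076 with array weights, each with 0 genes called. Since this is bulk tissue, fewer cells of a type and less RNA per cell could not be told apart for any gene below.

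Among genes with at least 5 TPM on average and the same direction in all 3 pairs, 4 are described as those with the smallest p. None of them passed (limma adjusted p = 1 for each). ENSMOCG00000004955 read 14.2 and 12.1 TPM in the female and male of pair 18, 15.9 and 0 TPM in those of pair 22, and 41.8 and 37.1 TPM in those of pair 27. In 2-week pairs its lowest, median and highest values were 0, 0 and 28.1 TPM. So 5 of 6 long-paired animals had the transcript and 14 of 18 2-week animals had none, but the groups overlapped, since 2-week female 9 (15.9 TPM) and 2-week male 12 (28.1 TPM) were as high. The gene is short, and 1 read was worth about 2.37 TPM: the 6-week values rest on 6, 5, 7, 0, 18 and 16 reads in the same order, and no 2-week library had more than 11. Its log2 fold change was 3.64 ± 0.88 (SE), the largest of the 4. The gene averaged 2.73 TPM in 2-week libraries and so met the rule of 5 TPM only through the 6-week libraries. In the separated animals it ranged from 0 to 69.0 TPM in cohort 3 and from 0 to 65.6 TPM in cohort 4, with medians of 5.39 (n = 11) and 2.31 TPM (n = 14).

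ENSMOCG00000006564 was at 136 and 83.1 TPM in the female and male of pair 18, 97.3 and 102 in pair 22, and 101 and 133 in pair 27. Its 2-week values ran from 42.5 through a median of 70.9 to 112 TPM. All 6 long-paired animals lay above the 2-week median, and 2 lay above every 2-week animal. The log2 fold change was 0.58 ± 0.16 (SE), and it was 0.58, 0.48 and 0.70 in pairs 18, 22 and 27 taken singly (SE 0.26 each). This gene too is short (26 to 75 reads in the 2-week libraries). Separated animals of the same cohorts had medians of 112 TPM (cohort 3) and 99.1 TPM (cohort 4), both above the 2-week median as well.

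ENSMOCG00000002457 went the other way. It was at 38.2 TPM in both partners of pair 18, 48.6 and 43.2 in the female and male of pair 22, and 59.9 and 54.2 in those of pair 27, against 42.5, 61.7 and 96.3 TPM as the lowest, median and highest 2-week values. All 6 values lay under the 2-week median, 2 of them (pair 18) under every 2-week animal. The log2 fold change was -0.45 ± 0.13 (SE). ENSMOCG00000006303 was at 39.2 and 45.3 TPM in the female and male of pair 18, 32.8 and 56.8 in pair 22, and 36.7 and 18.3 in pair 27, against 26.9, 55.4 and 80.6 TPM in 2-week pairs. The male of pair 22 was the 1 long-paired animal above the 2-week median. Its log2 fold change was -0.62 ± 0.19 (SE). Separated animals had medians of 41.8 TPM in cohort 3 and 37.9 TPM in cohort 4, both below the 2-week median as well.

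**Figure D2:**
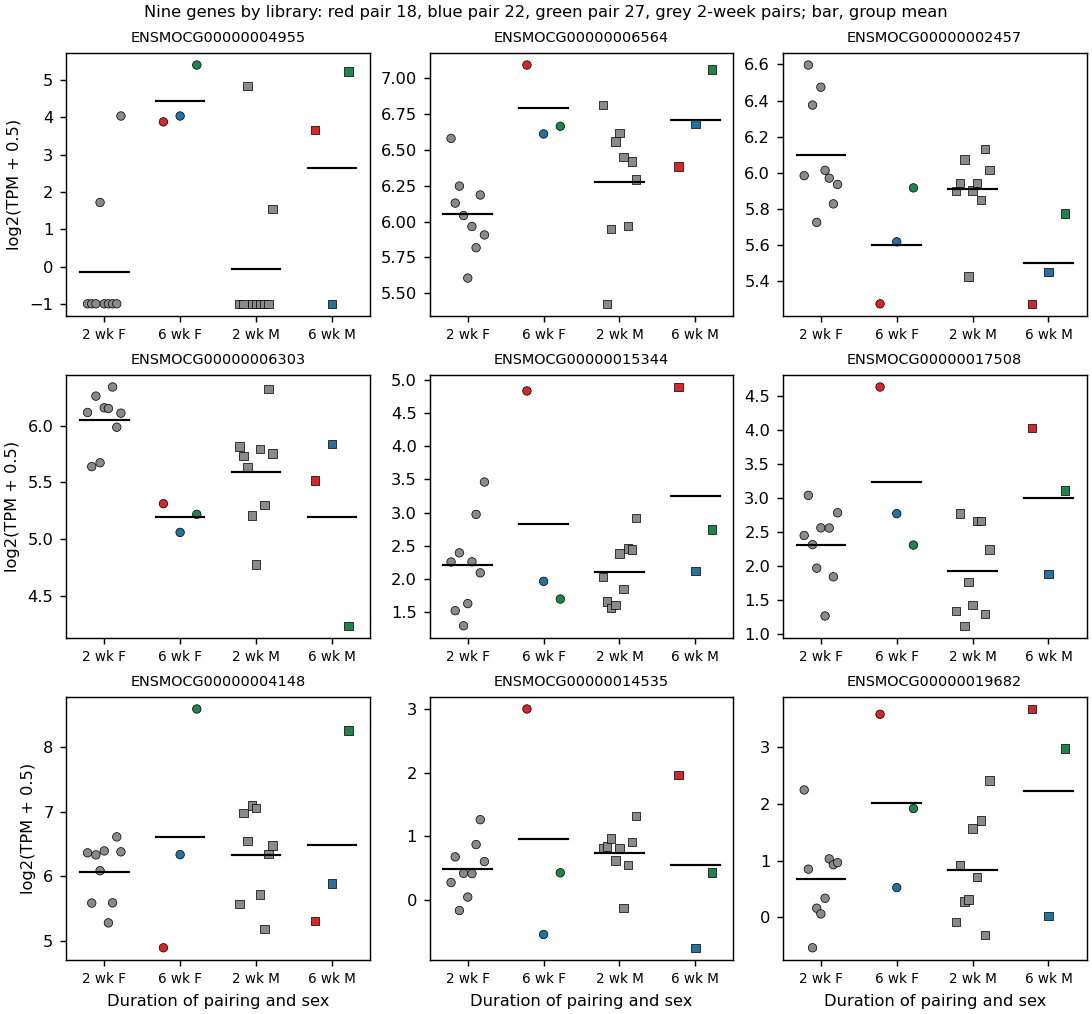
Level of 9 genes in each library, as log2(TPM + 0.5) on vertical axes that differ between panels, by duration and sex, with red for pair 18, blue for pair 22, green for pair 27, grey for 2-week pairs, and a bar at each group mean. In the top row and ENSMOCG00000006303 most coloured points shift the same way, with grey points of the 18 2-week libraries among them. For ENSMOCG00000015344 and ENSMOCG00000017508 pair 18 lies apart, and pairs 22 and 27 overlap. For ENSMOCG00000004148, ENSMOCG00000014535 and ENSMOCG00000019682 the 3 pairs lie apart from each other.

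DESeq2 alone called 3 genes in the averaged comparison, and these are named after their values were seen. ENSMOCG00000003694 (log2 fold change 2.67, DESeq2 adjusted p = 0.00599; edgeR adjusted p = 0.328) had a mean below 1 TPM and so was outside the main test. It was at 4.59 and 5.66 TPM in the female and male of pair 18, 0.215 and 0.173 in pair 22, and 0.59 and 3.3 in pair 27, against 0.05, 0.224 and 0.998 TPM in 2-week pairs. Its call rests on 3 animals above all 18, while pair 22 lay below the 2-week median. ENSMOCG00000015438 (log2 fold change 1.24, DESeq2 adjusted p = 0.0219; edgeR adjusted p = 0.467) was at 1.46 and 1.23 TPM in pair 18, 1.42 and 0.814 in pair 22, and 1.08 and 2.49 in pair 27. In 2-week pairs it ran from 0.331 through 0.607 to 1.33 TPM. All 6 animals lay above the 2-week median and 3 above every 2-week animal. With no filter on low values, limma gave it a log2 fold change of 0.74 ± 0.16 (SE; adjusted p = 0.409). The model of effective length had a residual of 14.7% for this gene, so its reconstructed reads, and the count-based values, are less certain than its TPM. ENSMOCG00000003887 was listed at 0 in all 6 long-paired animals and also in 13 of 18 2-week animals. The other 5 ranged from 35.7 TPM in 2-week male 11 to 240 TPM in 2-week male 13. It was the 1 lower call (DESeq2 adjusted p = 1.67e-06), and the fitted DESeq2 log2 fold change of -22.13 is no measure of size, since the 6-week group is listed at 0. The limma adjusted p of this gene was 1, and edgeR's was also 1.

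Taken by sex, 0 of 13137 genes passed in females (0%; 123 unadjusted, 0.936%, with 0.426% higher and 0.51% lower) and 0 of 13067 in males (0%; 189 unadjusted, 1.45%, with 1.16% higher and 0.283% lower) with limma. In females DESeq2 called 4 genes and edgeR 0 (315 unadjusted). In males DESeq2 (378 unadjusted) and edgeR (328 unadjusted) called 0. With the fragment index as covariate the unadjusted counts were 1459 in females and 1135 in males, and with array weights 1333 and 615. With 3 against 9 animals, the simulated data gave calls for 33% of genes changed by 1 on the log2 scale in females and 23% in males, and for 86% and 83% of those changed by 2. The female comparison was led by ENSMOCG00000004955 (log2 fold change 4.58 ± 0.94, SE; limma adjusted p = 1), which passed without 2-week female 9 (5.10, limma adjusted p = 0.00554), and by ENSMOCG00000006303. For the first gene, female 9 (15.9 TPM) was the only 2-week female within the long-paired range, the others reading up to 2.79 TPM. Leaving out that animal therefore widened the gap, and no other pair left out gave a call in females. For ENSMOCG00000006303 the 3 long-paired females, at 39.2, 32.8 and 36.7 TPM, all lay below the 9 short-paired females, which ran from 49.3 through a median of 68.9 to 80.6 TPM. That is a log2 fold change of -0.85 ± 0.18 (SE; limma adjusted p = 1), and it passed with DESeq2 (adjusted p = 7.22e-06) and with array weights (0.0109). In males the same gene was at 45.3, 56.8 and 18.3 TPM against 26.9, 52.6 and 79.6 TPM, so 2 of 3 lay within the 2-week range and the male of pair 27 below it. ENSMOCG00000014421 was also lower in all 3 long-paired females (0.931, 0.658 and 0.65 TPM) than in the 9 short-paired ones (1.36, 2.05 and 4.11 as lowest, median and highest; log2 fold change -1.22 ± 0.32, SE; limma adjusted p = 1).

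Males were led by other genes. ENSMOCG00000006191 was at 1.57, 9.05 and 44.1 TPM in the males of pairs 18, 22 and 27 against 26.6, 61.2 and 120 TPM in 2-week males (log2 fold change -2.70 ± 0.67, SE; limma adjusted p = 1), so the males of pairs 18 and 22 lay below every 2-week male and that of pair 27 among them. ENSMOCG00000004221 was at 0, 2.29 and 1.83 TPM against 4.25, 6.28 and 22.5 TPM, and here all 3 long-paired males lay below the 9 others (-2.45 ± 0.52, SE; limma adjusted p = 1). The female partners of those males were within the 2-week female range for both genes. ENSMOCG00000002469 was higher in all 3 long-paired males, at 3.69, 5.92 and 2.59 TPM against 0, 0.491 and 1.66 TPM in 2-week males (2.21 ± 0.50, SE; limma adjusted p = 1), on 7, 12 and 5 reads. This gene averaged 0.592 TPM in 2-week males and so passed the filter of 1 TPM only through the 3 long-paired males. ENSMOCG00000015042 was likewise higher in all 3, at 21, 16.3 and 20.3 TPM against 8.47, 12.7 and 14.7 TPM (0.68 ± 0.19, SE; limma adjusted p = 1). The genes were chosen by their p, so the gap between their groups is a description.

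An interaction term compared the sexes, as the change in males minus that in females. With limma 0 of 13111 genes passed (0%; 88 unadjusted, 0.671%, with 0.45% higher and 0.221% lower), edgeR called 0 (182 unadjusted) and DESeq2 called 1, ENSMOCG00000006840 (DESeq2 adjusted p = 0.0021), named after its values were seen. In simulated data this test found 12% of genes changed by 1 on the log2 scale and 74% of those changed by 2. The smallest limma p went to ENSMOCG00000020304, an abundant transcript at 656, 368 and 311 TPM in the females of pairs 18, 22 and 27 and at 326, 205 and 256 TPM in the males. The 2-week medians were 321 TPM in females and 388 TPM in males, and the interaction was -1.06 ± 0.31 (SE; limma adjusted p = 1). ENSMOCG00000014691 had an interaction of -2.32 ± 0.68, ENSMOCG00000017493 of 0.94 ± 0.29 and ENSMOCG00000009906 of 2.11 ± 0.72 (SE; limma adjusted p = 1 for each).

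Pair 18 was then set against the 2-week animals by itself. Most genes read higher in it: 73.6% of the 13111 had a positive log2 fold change, with a median of 0.29. The test called 25 genes, all higher (0.191% of those tested), and 3128 at an unadjusted p below 0.05 (23.9%), 2828 higher (21.6%) and 300 lower (2.29%). Both partners lay above all 18 2-week animals for 528 genes (4.03%) and below all of them for 40 (0.305%). This contrast describes 1 pair of animals, 2 libraries, and not the duration of pairing. The median shift depended on the scaling: it was 0 after median-ratio rescaling of TPM and -0.07 after quantile normalization. Both scalings level the libraries, so a median near 0 is set by the method. The share of higher calls also differed between fits: 25 of 25 in the main test, 3 of 3 with median-ratio rescaling, 5 of 5 with the first component as covariate, 7 of 13 with quantile normalization, 17 of 20 without the 11 most abundant identifiers, 28 of 34 with edgeR and 146 of 785 with DESeq2. The replicate block left 0 calls (1990 unadjusted), leaving out the female partner left 0, and leaving out the male partner gave 1 call, ENSMOCG00000006840, which is not among the 25.

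The shift was graded by level and by length. In pair 18 the median log2 fold change was 0.50 for the 3234 genes of 1 to 5 TPM, 0.30 for the 7786 of 5 to 50 TPM and 0.00 for the 2091 of 50 TPM or more. In 3 equal classes of effective length, known for 70.3% of the genes, it was 0.05, 0.22 and 0.43 from the shortest to the longest. In pairs 22 and 27 the medians by length went the other way, -0.13, -0.18 and -0.24 in pair 22 and -0.03, -0.10 and -0.18 in pair 27. The fragment index was -1.70 and -2.01 in the female and male of pair 18, between -0.80 and -0.96 in the other 4 long-paired animals, and -0.288 on average over 2-week pairs. A low index was not particular to pair 18. The female and male of 2-week pair 2 were at -2.24 and -1.45, those of 2-week pair 9 at -2.43 and -1.81, and 2-week male 10 at -1.43. With the index as a covariate the median of pair 18 was 0.10 and 11 genes were called, 7 of them among the 25.

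**Figure D3:**
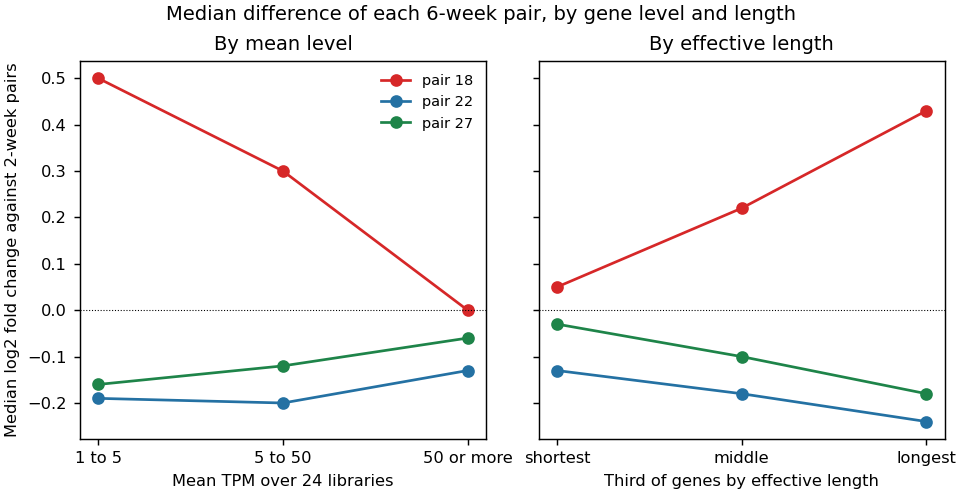
Median log2 fold change of each 6-week pair against the 18 2-week libraries (vertical axis), for genes in 3 ranges of mean TPM (left) and 3 equal classes of effective length (right, in order of length). Pair 18 (red) falls from 0.50 to 0.00 with rising level and rises from 0.05 to 0.43 with length, while pairs 22 (blue) and 27 (green) lie below zero in every class.

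The 25 genes called in pair 18 were of low abundance, with a mean over the 24 libraries of 1.02 to 7.44 TPM (median 1.87). Of them 22 lay under 5 TPM, against 3234 of the 13111 genes tested. That mean included pair 18, so a low gene could pass the filter of 1 TPM through the pair in which it was high. In pair 18 the 25 had a median of 403 reads per gene and library, against 65 in 2-week libraries. Their log2 fold changes ran from 1.26 to 3.56 with a median of 2.18, beside a median of 0.29 over all genes. In all 25, both partners lay above every 2-week animal. All of these gaps follow from how the 25 genes were chosen and add no support to their calls. ENSMOCG00000015344 had the largest change among those with at least 5 TPM: it was at 27.9 TPM in the female and 29.1 TPM in the male, against 1.96, 4.03 and 10.5 TPM in 2-week animals (log2 fold change 2.70 ± 0.41, SE; limma adjusted p = 0.00547). In pairs 22 and 27 the same gene read 3.41 and 3.86, and 2.75 and 6.21 TPM, inside the 2-week range. Its call was lost in 3 of 30 alternatives: without either partner (0.381 and 0.352) and, at an adjusted p of 0.0542, with the replicate block. ENSMOCG00000017508 was at 24.3 and 15.8 TPM in pair 18 against 1.68, 4.37 and 7.73 TPM (2.21 ± 0.43, SE; limma adjusted p = 0.0349; 0.328 with the replicate block). Its adjusted p ranged from 0.00151 to 0.642 over 30 alternatives, and 13 of them lost the call. ENSMOCG00000015344 and ENSMOCG00000017508 averaged 4.34 and 4.21 TPM in 2-week libraries, so both met the rule of 5 TPM only through pair 18.

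The other called genes were outside the rule for named genes, and 3 are given that were chosen after their values were seen. ENSMOCG00000014295 had the smallest adjusted p (0.00346, limma): 14 TPM in the female and 7.31 TPM in the male of pair 18, against 0.0134, 0.663 and 2.59 TPM in 2-week animals and 0.435 to 1.25 TPM in pairs 22 and 27. Its mean over the 24 libraries was 1.56 TPM, and it passed the filter of 1 TPM only through pair 18. ENSMOCG00000004455 had the largest change, at 12.8 and 7.97 TPM against 0, 0.141 and 2.8 TPM (log2 fold change 3.56 ± 0.65, SE; limma adjusted p = 0.0281). The 2-week median of this gene lay under that filter as well. ENSMOCG00000005659 was nearly equal in the partners, at 13.8 and 13.5 TPM against 2.69, 4.14 and 6.21 TPM (1.64 ± 0.26, SE; limma adjusted p = 0.00547). Across the 25, the median log2 fold change was 0.00 in pair 22, with 12 genes higher, and 0.18 in pair 27, with 20 higher. Over all genes tested, 16.9% were higher in pair 22 and 37.4% in pair 27. The 25 were chosen against these same 2-week libraries, so these counts carry no test. Of the 2-week animals, a member of pair 9 was the highest for 12 of the 25 genes, and a member of pair 2 or of pair 11 for 4 each. Without pair 9 the test called 80 genes, 24 of them among the 25. Without pair 14 it called 5, without pair 13 it called 6, without pair 8 it called 9, without pair 16 it called 11, and without pair 22, which enters the estimate of the spread, it called 13. With the first component as a covariate it called 5, of which 3 were among the 25 (ENSMOCG00000005659, ENSMOCG00000014295 and ENSMOCG00000015344).

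**Figure D4:**
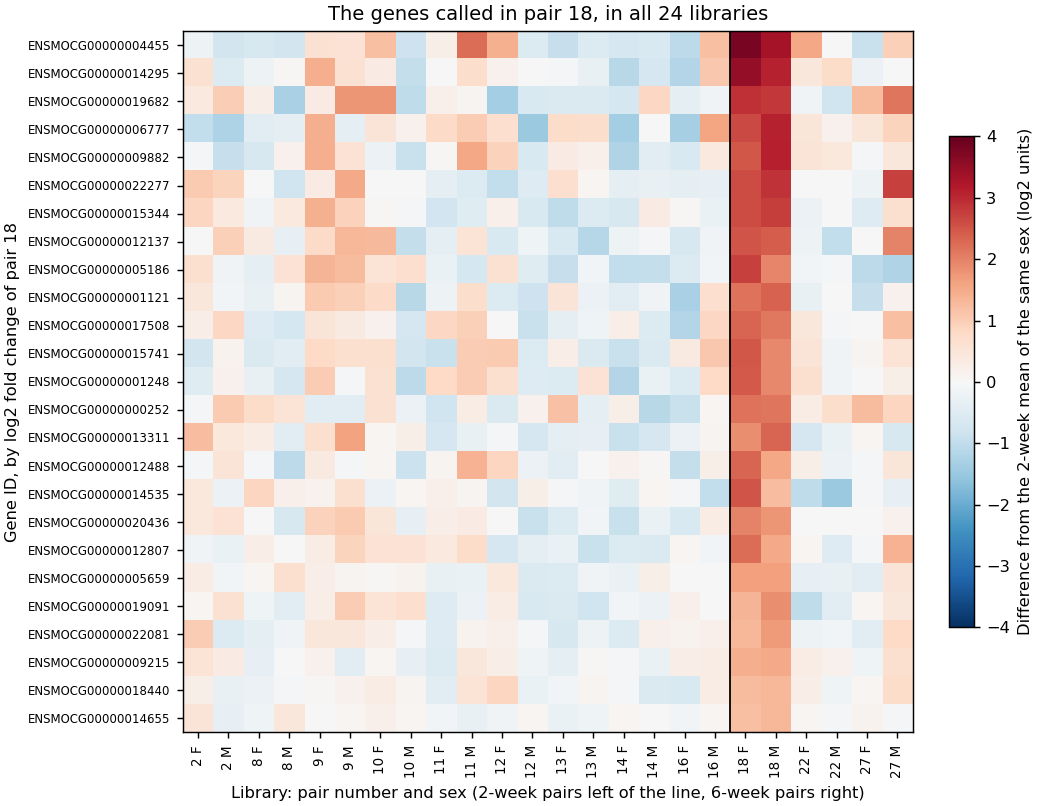
Difference of each of the 24 libraries (columns, pair number and sex) from the mean of the 2-week libraries of its sex outside its own pair, in log2 units (colour), for the 25 genes called in pair 18 (rows). The columns 18 F and 18 M are red in every row by construction of the call, while of the other libraries the female and male of 2-week pair 9 are positive for 23 and 20 genes, 2-week female 10 for 23 and the male of pair 27 for 21.

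Of the 3 pairs, pair 22 had the fewest genes at an unadjusted p below 0.05. With limma 0 of 13111 genes passed (0%; 165 unadjusted, 1.26%, with 25 higher, 0.191%, and 140 lower, 1.07%), edgeR called 1 and DESeq2 called 3. On the TPM scale 16.9% of genes were above the 2-week mean, with a median log2 fold change of -0.19 (-0.19, -0.20 and -0.13 from low to high level). This shift too depended on the scaling, with a median of 0 after median-ratio rescaling, 0.01 after quantile normalization and -0.03 with edgeR. Such scalings level the libraries by construction. Both partners lay above all 2-week animals for 2 genes (0.0153%) and below for 30 (0.229%). ENSMOCG00000000003 had the smallest p among higher genes of at least 5 TPM, at 152 TPM in the female and 141 TPM in the male against 20, 53 and 121 TPM in 2-week animals (log2 fold change 1.41 ± 0.47, SE; limma adjusted p = 0.94). Both values lay above the 2-week range, on 36 and 33 reads of a short gene. ENSMOCG00000005019 followed, at 40.5 and 27.6 TPM against 11.6, 19.1 and 31.6 TPM (0.76 ± 0.29). ENSMOCG00000008900 was lower, at 1.83 and 2.33 TPM against 2.99, 5.04 and 8.4 TPM (-1.11 ± 0.31), and ENSMOCG00000008235 was at 5.29 and 10.6 TPM against 10.6, 19.7 and 31.9 TPM (-1.23 ± 0.35; SE and limma adjusted p = 0.94 for these 3 genes). The gene that edgeR called was ENSMOCG00000016576 (log2 fold change 4.92, edgeR adjusted p = 0.016), named after its values were seen, and array weights and DESeq2 also called it.

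In pair 27, 2 of 13111 genes passed, both higher (0.0153%), and 624 did so unadjusted (4.76%, 252 higher, 1.92%, and 372 lower, 2.84%). Of all genes, 37.4% were above the 2-week mean, with a median log2 fold change of -0.11. The median was 0 after median-ratio rescaling and 0.03 after quantile normalization, which level the libraries by construction. The direction of calls differed between fits, with 242 higher and 2200 lower with the fragment index as covariate, 64 and 145 with array weights, 48 and 41 with DESeq2, and 9 and 0 with edgeR. Both partners were above every 2-week animal for 55 genes (0.419%) and below for 57 (0.435%). ENSMOCG00000004148 was at 385 TPM in the female and 306 TPM in the male, against 35.8, 81.3 and 136 TPM in 2-week animals (log2 fold change 2.23 ± 0.39, SE; limma adjusted p = 0.0492). Both partners stood well above the highest 2-week animal, on 288 and 235 reads where 2-week libraries had 29 to 94. The gene did not move alike in the other long-paired animals: it was at 29.2 and 39.0 TPM in pair 18, the first below all 2-week animals, and at 80.2 and 58.6 TPM in pair 22. Among separated animals it ranged from 51.6 to 441 TPM in cohort 3 and from 44.3 to 304 TPM in cohort 4. The call was lost in 20 of 29 alternatives at log2 fold changes of 1.96 to 2.50, the replicate block among them (limma adjusted p = 0.741).

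The other called gene of pair 27, ENSMOCG00000000011, had a mean under 5 TPM, was named after its values were seen, and rests on few reads. The gene averaged 0.838 TPM in 2-week libraries and so passed the filter of 1 TPM only through pair 27. It was at 24.3 and 28.5 TPM in the female and male and listed at 0 in pairs 18 and 22, with a highest 2-week value of 5.66 TPM (log2 fold change 5.17 ± 0.87, SE; limma adjusted p = 0.0492). These were 5 and 6 reads, and 15 of 18 2-week libraries had none and the other 3 had 1 each. A read of this short gene was worth 4.87 TPM. Below the threshold, ENSMOCG00000016113 was higher at 34.7 and 51.5 TPM against 7.97, 12.5 and 23.7 TPM in 2-week animals. The log2 fold change was 1.65 ± 0.32 (SE), with a limma adjusted p of 0.131. This gene was at 23.9 and 20.7 TPM in pair 18 and at 10.6 and 15.4 TPM in pair 22. Separated animals had medians of 25.9 TPM in cohort 3 and 23.7 TPM in cohort 4, both above the 2-week median as well. ENSMOCG00000007465 was lower at 14.5 and 11.5 TPM against 16.9, 29.8 and 57.8 TPM. The log2 fold change was -1.23 ± 0.33 (SE), with a limma adjusted p of 0.744. Its median in separated animals was 17.8 TPM in cohort 3 and lower still in cohort 4, both below the 2-week median. ENSMOCG00000006303, described above, had the smallest p among lower genes of at least 5 TPM in this pair (-1.10 ± 0.29, SE; limma adjusted p = 0.739). The replicate block left 0 calls in pair 27. In simulated data, the test of a single pair found 25% to 27% of genes changed by 1 on the log2 scale and 81% to 87% of those changed by 2.

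**Figure D5:**
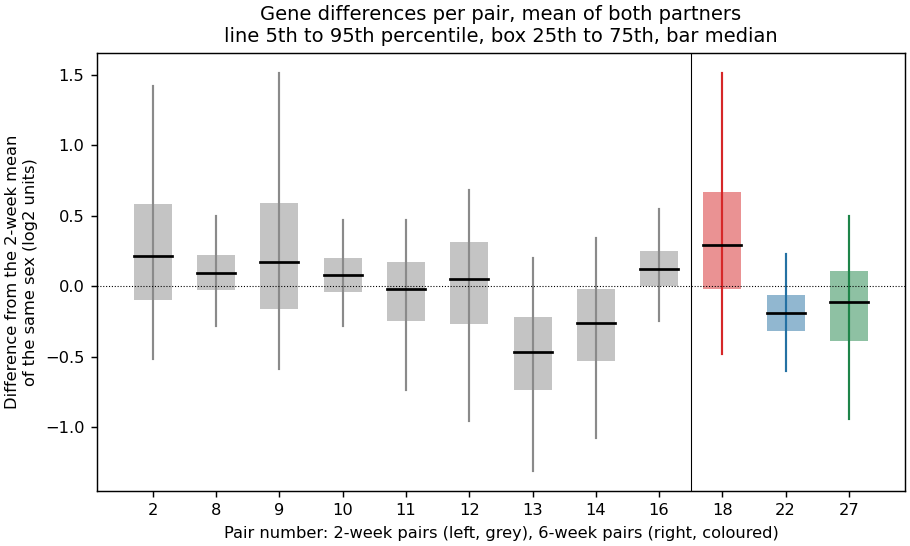
Distribution over 13111 genes of the difference of each pair (mean of both partners) from the mean of the 2-week animals of the same sex, own pair left out, in log2 units, with the line from the 5th to the 95th percentile, the box from the 25th to the 75th and the bar at the median. Pair 18 (median 0.29) resembles 2-week pairs 2 (0.21) and 9 (0.17), and pairs 22 (-0.19) and 27 (-0.11) lie between 2-week pairs 14 (-0.26) and 11 (-0.02).

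Whether the 3 pairs differ was tested directly. The F test over the 3 pair levels called 2 of 13111 genes (0.0153%), and 3063 had an unadjusted p below 0.05 (23.4%). With the replicate block 0 were called (1749 unadjusted), edgeR called 0 (3683 unadjusted) and DESeq2 called 285. The called genes were ENSMOCG00000004148, described above, and ENSMOCG00000014535 (limma adjusted p = 0.0349 for each), the second with a mean under 5 TPM and named after its values were seen. ENSMOCG00000014535 was at 7.53 and 3.41 TPM in the female and male of pair 18, 0.186 and 0.0934 TPM in pair 22, and 0.845 and 0.846 TPM in pair 27, against 0.391, 1.07 and 2.0 TPM in 2-week animals. Pair 18 thus lay above and pair 22 below every 2-week animal, on 362 and 161 against 10 and 5 reads, and the log2 fold changes were 1.87 ± 0.35 and -1.27 ± 0.35 (SE). The mean over the 3 pairs was 0.14 ± 0.37 (SE; limma adjusted p = 1). This gene averaged 1.36 TPM over the 24 libraries, pair 18 included, and 1.09 TPM in 2-week libraries, near the filter of 1 TPM.

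Likeness between partners depended on the measure. Across genes, the differences of the female and the male from the 2-week animals of their sex correlated at r = 0.72 in pair 18, 0.04 in pair 22 and 0.40 in pair 27. Between long-paired animals that were not partners r ran from -0.42 to 0.17, and within 2-week pairs from -0.23 to 0.76. These are correlations across genes that share libraries and reference animals, so they describe these pairs and carry no test. Both partners of pair 18 were over 2-fold above the 2-week mean for 1227 genes and over 2-fold below for 25. In 2-week pairs the higher count ran from 21 to 1210, the highest being pair 9. The median difference between partners was 0.33 log2 units in pair 18, 0.22 in pair 22 and 0.25 in pair 27, against 0.20 to 0.66 in 2-week pairs.

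In addition, 5 genes on which other comparisons of these animals turn were followed in the long-paired voles. ENSMOCG00000018254 split by sex and pair: the females of pairs 18 and 22 were at 305 and 263 TPM, within the 2-week female range (82.2, 243 and 422 TPM), while the female of pair 27 was at 57.2 TPM, below it. The 3 males were at 75.6, 45.2 and 52.8 TPM, against 52.5, 105 and 555 TPM in 2-week males. ENSMOCG00000010003 did the same, with 394, 392 and 83.4 TPM in the females of pairs 18, 22 and 27 and 99.7, 101 and 82.9 TPM in the males. In both genes 2-week male 11 stood far above the other 2-week males. Averaged, ENSMOCG00000018254 had a log2 fold change of -0.72 ± 0.38 and ENSMOCG00000010003 of -0.78 ± 0.39 (SE; limma adjusted p = 1 for each). In pair 27 alone the changes were -1.53 ± 0.57 and -1.61 ± 0.60 (SE; limma adjusted p = 0.77 for each) (medians in separated animals were 54.8 and 76.0 TPM in cohorts 3 and 4 for the first gene, and 81.5 and 104 TPM for the second).

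ENSMOCG00000019682 was at 11.4 and 12.2 TPM in the female and male of pair 18, 0.938 and 0.519 TPM in pair 22, and 3.27 and 7.36 TPM in pair 27, against 0.19, 1.22 and 4.81 TPM in 2-week animals. It was 1 of the 25 genes called in pair 18 (log2 fold change 2.87 ± 0.57, SE; limma adjusted p = 0.036), was 1.69 ± 0.57 in pair 27 (0.77) and -0.48 ± 0.57 in pair 22 (0.94, limma), and averaged 1.36 ± 0.47 (SE; limma adjusted p = 1). ENSMOCG00000003694 took the same order of animals, as given above. ENSMOCG00000017273 was read in all 3 long-paired females, at 2.57, 3.14 and 1.14 TPM (47, 64 and 22 reads), and listed at 0 in the 3 males. In 2-week females it ran from 0.0586 through a median of 3.19 to 9.47 TPM, and it was listed at 0 in 9 of 9 2-week males. The long-paired females thus lay inside the 2-week female range, with a log2 fold change of -0.31 ± 0.67 (SE; limma adjusted p = 1), and it was listed at 0 in all 25 separated animals of both cohorts.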

How the data were processed

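RNA was poly(A)-selected and sequenced in pairs of reads of 150 bases, per the labels' protocols. The authors deposited TPM for 51 libraries, and a signal of normalized counts that leaves out the 6-week pairs. Aligner, counter, build and annotation: not given in the sources used here. DESeq2 and DESeq are listed, without version, in the submitters' processing notes. In the deposited normalized table all values (100.0%) were whole multiples of 1 step per library within 0.01 of a read, which gave the reads of the 2-week libraries. Reads of the 6-week libraries were reconstructed from the deposited TPM with a model of effective length per gene and library. Applied to the 18 libraries with known reads, it gave totals within 1.097% and the exact count for 66.8% to 94.0% of well-modelled genes. Lower fragment index means shorter fragments.

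The main test was limma 3.58.1 (R 4.3.3, eBayes trend and robust) on log2(TPM + 0.5), with sex as a term, for genes of at least 1 TPM on average, two-sided, with the Benjamini-Hochberg adjustment over all genes tested. The 3 pairs entered as separate levels for the tests of single pairs. The tests were tested on simulated data, drawn independently for each gene and library, without likeness between partners. For limma the spread was that of the 2-week libraries, and for reads it was a fixed value. With 100 genes changed by each size, the averaged comparison gave 3 false calls with limma, 12 with edgeR and 28 with DESeq2. The limma tests of pairs 18, 22 and 27 gave 4, 9 and 5 false calls. Alternatives were other pseudocounts (0.1 and 1), filters and scalings, array weights, covariates, sets of libraries and, added after seeing the data, edgeR 4.0.16 and DESeq2 1.42.0 on the reads and the fragment index as a covariate. Partners share a pair number by the labels. The consensus correlation of partners was 0.395, so a fit with the pair as replicate block is given where it changes a call. No libraries were identical (0 of 276 combinations). Each library is a separate animal.

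Named genes were those with the largest change among called genes, or the smallest p where fewer passed, with at least 5 TPM except in the sex contrasts, 2 per direction, and 5 genes always given. The members, this rule and the lists were chosen with earlier results of these data known. Lists of marker genes by symbol could not be run, as identifiers are not paired with symbols. The labels place 2-week female 15 in the normalized table where its columns hold 2-week female 9, and libraries were taken by column.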

Additional observations from a re-analysis of the deposited data

Results flagged for a closer look

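Within groups of 9 animals, 68 sets of values were checked for 1 animal far from the other 8, and 10 were found. Chance alone gives about 1 in 20 for independent, normally distributed values. TPM cannot fall below 0, some of these genes rest on few reads, and genes can share an animal. No excess over chance can therefore be read from the count. The number is the gap to the nearest animal as a share of the range. ENSMOCG00000004955 was highest in 2-week female 9 (15.9 TPM, others up to 2.79; 0.825) and in 2-week male 12 (28.1 TPM, others up to 2.41; 0.914). ENSMOCG00000019682 was highest in 2-week female 10 (4.23 TPM, others up to 1.54; 0.666). Among 2-week males, ENSMOCG00000018254 (555 TPM, others up to 127; 0.851) and ENSMOCG00000010003 (980 TPM, others up to 241; 0.816) were highest in animal 11, ENSMOCG00000004221 in animal 12 (22.5 TPM, others up to 9.98; 0.686), ENSMOCG00000009906 in animal 8 (21.4 TPM, others up to 8.85; 0.689) and ENSMOCG00000003694 in animal 9 (0.998 TPM, others up to 0.482; 0.58). ENSMOCG00000000011 was above 0 in male 13 only (4.99 TPM; 1.0), on 1 read. ENSMOCG00000002457 was lowest in male 13 (42.5 TPM, others from 57.2; 0.545).

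Between the 3 long-paired pairs, ENSMOCG00000004148 and ENSMOCG00000014535 differed by the F test of the 3 levels (limma adjusted p = 0.0349 for each), with pair 27 high in the first and pairs 18 and 22 apart in the second. Neither passed with the replicate block.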

How the results depend on the processing

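Counts of called genes are given under each alternative that moved them. For 6 against 2 weeks, 2 genes were called with no filter on low values and 3 with DESeq2. In females 4 were called with array weights and 4 with DESeq2, in males 1 with no filter, and in the interaction 1 with DESeq2. Pair 18 (25 in the main test) had 3 calls at a pseudocount of 0.1, 53 at 1, 303 with no filter, 1 at a mean of at least 5 TPM, 13 with quantile normalization, 3 with median-ratio rescaling, 4532 with array weights, 5 with the first component as covariate, 44 without trend and robust options, 11 without cohort 1, 11 with the fragment index and 785 with DESeq2. The call left in pair 18 at a mean of at least 5 TPM was ENSMOCG00000015344, which met that mean only through pair 18. Pair 22 (0) had 2 with no filter, 3 with array weights, 274 with the fragment index, 1 with edgeR and 3 with DESeq2. Pair 27 (2) had 10 with no filter, 209 with array weights, 1 with all 20 libraries of 2-week pairs, 1 without cohort 1, 2442 with the fragment index, 9 with edgeR and 89 with DESeq2. It had 0 at a pseudocount of 0.1, a mean of at least 5 TPM, quantile or median-ratio scaling, without the 11 most abundant identifiers, with the first component and without trend and robust options. The test between the 3 pairs (2) had 7 at a pseudocount of 1, 80 with no filter, 6646 with array weights, 10 without trend and robust options, 1128 with the fragment index and 285 with DESeq2. It had 0 at a mean of at least 5 TPM, with quantile or median-ratio scaling, without the 11 identifiers, with the first component, with all 20 libraries and with edgeR. The cause of these moves was not tested.

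With partners as a replicate block (pairing by pair number), 0 genes were called in each comparison it was run for, which ended the calls in pair 18, pair 27 and between pairs and changed no other call. Leaving out 1 pair or 1 partner at a time gave 0 to 0 calls for 6 against 2 weeks, males, the interaction and pair 22, 0 to 1 in females, 0 to 80 in pair 18, 0 to 3 in pair 27 and 0 to 5 between pairs. Where a single partner remained, it was assumed to vary like the other libraries.

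For the named genes, 811 of 865 alternative values kept direction and side of the threshold, 36 lost a call, 15 gained one and 3 turned direction. These 3 were ENSMOCG00000017273 for 6 against 2 weeks (-0.15), at 0.018 without cohort 4, 0.018 without pair 27 and 0.068 with the fragment index, with a range of -0.312 to 0.018 over pairs left out in turn. Cohort and duration cannot be told apart, pairs 18 and 22 differed within 1 cohort and 1 duration, and the tests of single pairs rest on 2 libraries each. Short genes with few reads carry large TPM steps, so single reads decide their values.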
